A study of Mus musculus with 6 samples.

Results

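The genes described here are the members of the ATP-binding cassette (ABC) superfamily named Abca to Abcg. They were taken by a rule on gene names: every array probe whose transcript accession belonged to a protein-coding mouse gene with the symbol Abca, Abcb, Abcc, Abcd, Abce, Abcf or Abcg followed by a number was taken, with 1 further Abca gene not analysed here. The rule found 80 probes of 56605 on the array, standing for 49 genes of 23462 gene symbols. The rule uses no measured value.

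The study measured RNA in TM3 cells, a mouse testicular somatic line derived from Leydig cells, the testosterone-producing cells between the seminiferous tubules. Control cells (0 µM) and cells given 4-nitrophenol (PNP, also a breakdown product of some insecticides) at 10 µM for 24 h were compared, with 3 samples in each group and 1 Agilent array for each sample. No other agent or genetic change is named, and both groups are the same cell line. The labels number the replicates but do not say whether they were separate cultures, so each p-value below reflects only how far these samples spread, and that spread may be technical.

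ABC proteins bind and split ATP through a conserved pair of nucleotide-binding domains, and most use that energy to move a substrate across a membrane. In barrier and hormone-producing tissues the exporters of the Abcb, Abcc and Abcg groups carry out drugs, steroid conjugates and glutathione conjugates, while most Abca members and several Abcg members move lipids. Phenols are cleared from cells largely as glucuronide and sulfate conjugates, which are typical cargo of the Abcc exporters and of Abcg2. Abce1 and the Abcf proteins keep the nucleotide-binding domains but have no membrane part and act on ribosomes.

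No ABC gene passed the test for a difference between PNP and control cells. Of the 49 genes, 30 had a probe well above background on every array of the control or of the PNP group, and 27 of these could be tested. Called genes numbered 0 of 27 at an adjusted p below 0.05 (limma, two-sided, Benjamini-Hochberg over 13138 genes), against 0% of all genes tested. At an unadjusted p below 0.05 there were 4 of 27, against 6.52% of all genes. The differences among the 27 ran from -0.66 to 0.53 on the log2 scale, and the adjusted p-values ran from 0.740 to 0.999. The 95% interval of the difference left out a 2-fold change in either direction for 26 of 27 genes, all but Abca9, and a 1.5-fold change for 22.

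**Figure D1:**
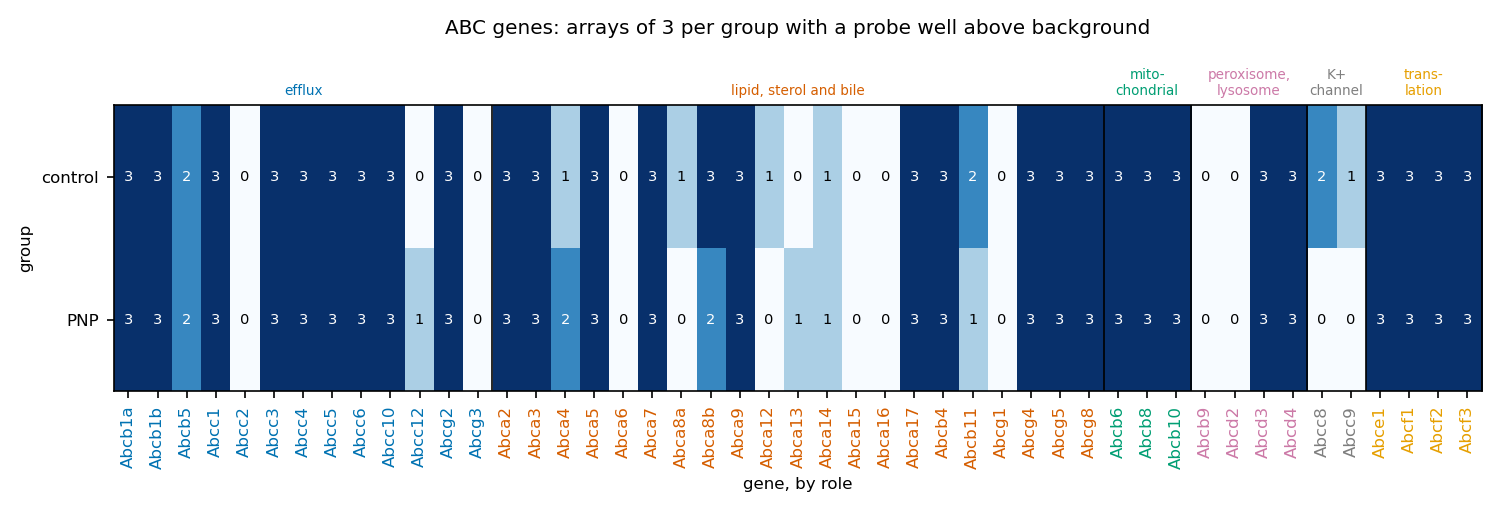
Number of arrays, out of 3 in each group, on which a probe of the gene was well above background, for 47 of the 49 ABC genes in columns ordered by role, with control cells in the upper and PNP cells in the lower row. Darker cells stand for more arrays. The 4 translation genes were above background on all 3 arrays of both groups, while neither of the 2 potassium channel subunits was detected in a group.

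Which ABC genes were above background in TM3 cells is described first. A gene is called detected where 1 of its probes was well above background, by the scanner software's own call, on all 3 arrays of a group. By that rule 30 of 49 ABC genes were detected (61.2%), against 68.7% of all protein-coding genes on the array. A further 11 were above background on some arrays, but on all 3 of neither group, and 8 were above background on none. Control arrays 1 to 3 had 33, 34 and 35 of the 49 genes above background, and PNP arrays 1 to 3 had 30, 33 and 33. The counts of the groups met at 33, so they overlapped.

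By role, all 4 mitochondrial genes were detected, among them Abcb6, linked to porphyrin transport, Abcb8, and Abcb10, linked to heme synthesis. All 4 genes of translation, Abce1, Abcf1, Abcf2 and Abcf3, were detected too. Among the 13 genes of drug, conjugate and nucleotide efflux 9 were detected: the P-glycoprotein genes Abcb1a and Abcb1b, the conjugate and organic anion exporters Abcc1, Abcc3, Abcc4, Abcc5, Abcc6 and Abcc10, and Abcg2, the breast cancer resistance protein. Abcc2, the conjugate exporter of the bile canaliculus, and Abcg3 were above background on no array, Abcb5 was above on 2 arrays of each group, and Abcc12 on 1 PNP array.

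Of the 21 genes of lipid, sterol and bile transport 11 were detected: Abca2, Abca3, Abca5, Abca7, Abca8b, Abca9, Abca17, Abcb4, Abcg4, Abcg5 and Abcg8. Several genes best known from other organs were not. Abca4, the retinoid transporter of the retina, was above background on 1 control and 2 PNP arrays. Abca12, the lipid transporter of the skin barrier, was above background on 1 control array. Abcb11, the bile salt export pump of the liver, was above background on 2 control arrays and 1 PNP array. Abca13 was above background on 1 PNP array, Abca14 on 1 array of each group, and Abca8a on 1 control array. Abca6, Abca15, Abca16 and the cholesterol exporter Abcg1 were above background on no array.

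Among the 5 peroxisomal and lysosomal genes, Abcd3, which carries fatty acids into peroxisomes, and Abcd4, which takes part in lysosomal release of vitamin B12, were detected. Abcd2 and the lysosomal peptide transporter Abcb9 were above background on no array. The sulfonylurea receptors Abcc8 and Abcc9, regulatory subunits of ATP-sensitive potassium channels, were above background on 2 and 1 control arrays and on 0 PNP arrays. These 2 genes were therefore not tested.

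The groups differed in detection at 2 genes. Both were detected in control cells alone, and no ABC gene was detected in PNP cells alone. One of them, Abca8b, was above background on all 3 control arrays and on 2 PNP arrays. In comparison, 235 genes of 20100 protein-coding genes on the array were detected in control cells alone, against 61 in PNP cells alone.

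Promoter sequence is shown here because it does not itself depend on any signal value and can be set beside detection. RefSeq (GRCm38.p6) lists a promoter of 300 bases, from 250 before to 50 after the start, for 37 of the 49 ABC genes. CpG sites, a C followed by a G, were counted in each on 1 strand, which gives the same count on the other, since the pair reads the same on both. Genes with several listed starts were given the mean count. The sequences of 4 efflux genes are printed 5′ to 3′ along the gene's own strand, with each CpG in capitals. Abcc4, at chr14:118706170-118706469 on the minus strand, was detected and has the most CpG sites of these, 41. Abcc2, at chr19:43782058-43782357 on the plus strand, was not above background on any array and has 1. The P-glycoprotein genes Abcb1a, at chr5:8566841-8567140 on the plus strand, and Abcb1b, at chr5:8797897-8798196 on the plus strand, lie side by side, were both detected and have 2 and 12.
Abcc4: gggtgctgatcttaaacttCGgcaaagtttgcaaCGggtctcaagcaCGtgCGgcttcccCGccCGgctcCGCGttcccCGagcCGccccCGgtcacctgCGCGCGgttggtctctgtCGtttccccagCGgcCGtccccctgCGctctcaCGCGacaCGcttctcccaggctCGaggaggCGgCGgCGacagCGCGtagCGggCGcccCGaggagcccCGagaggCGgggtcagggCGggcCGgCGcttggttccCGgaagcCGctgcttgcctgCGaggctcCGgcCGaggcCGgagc
Abcc2: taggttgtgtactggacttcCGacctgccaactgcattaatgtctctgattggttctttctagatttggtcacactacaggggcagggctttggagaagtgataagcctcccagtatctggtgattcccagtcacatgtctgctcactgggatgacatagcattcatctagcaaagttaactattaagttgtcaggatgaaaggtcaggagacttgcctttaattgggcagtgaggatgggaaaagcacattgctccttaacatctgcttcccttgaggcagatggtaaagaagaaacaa
Abcb1a: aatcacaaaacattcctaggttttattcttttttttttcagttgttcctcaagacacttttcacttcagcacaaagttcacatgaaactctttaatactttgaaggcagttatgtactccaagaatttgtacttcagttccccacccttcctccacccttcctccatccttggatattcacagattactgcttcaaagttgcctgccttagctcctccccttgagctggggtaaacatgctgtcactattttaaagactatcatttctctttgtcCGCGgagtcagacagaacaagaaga
Abcb1b: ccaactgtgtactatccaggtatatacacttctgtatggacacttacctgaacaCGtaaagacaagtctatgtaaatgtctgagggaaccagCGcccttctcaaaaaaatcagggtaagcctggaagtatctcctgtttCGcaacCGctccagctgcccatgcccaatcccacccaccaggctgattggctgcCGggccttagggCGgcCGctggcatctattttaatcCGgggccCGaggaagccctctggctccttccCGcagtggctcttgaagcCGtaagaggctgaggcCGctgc

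The pair of extremes does not stand for the whole family. Abcc4 has a second listed start, whose promoter holds 6 CpG sites, and Abcb1a was detected with 2. Detected ABC genes had a median of 21 CpG sites in 300 bases (23 genes, range 2 to 43.5), genes above background on some arrays had a median of 6 (9 genes), and genes above background on none had a median of 11 (5 genes). At least 10 CpG sites were present in 19 of 23 detected genes (82.6%), in 3 of 9 of the partly detected and in 3 of 5 of the others. Among all protein-coding genes on the array the shares with at least 10 were 76.4% of the detected, 34.7% of the partly detected and 27.2% of those above background on no array. This is a description of letters in a fixed window, with no test, and the PNP comparison played no part in it.

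**Figure D2:**
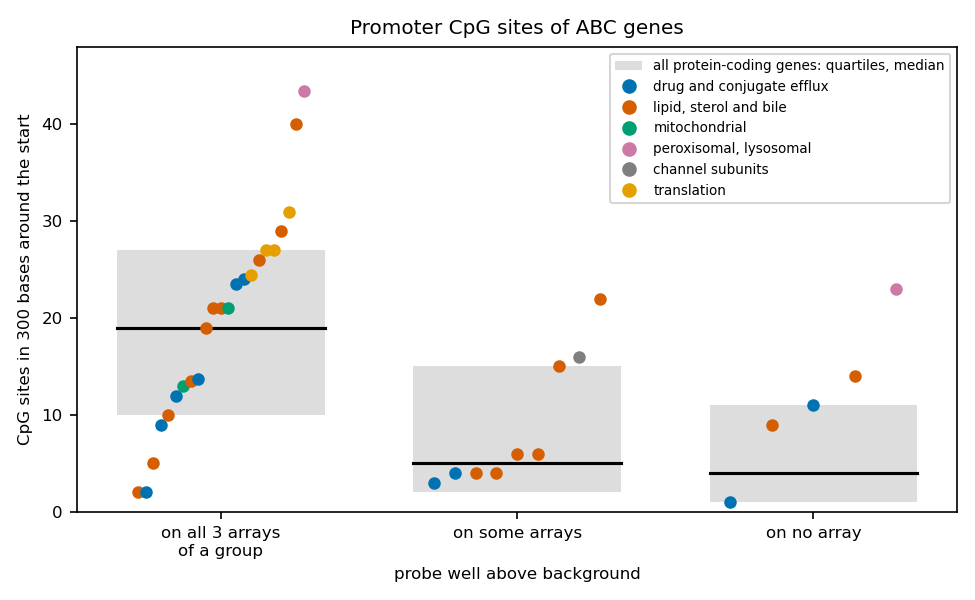
CpG sites in the 300-base RefSeq promoter of 37 ABC genes by detection class, one point for each gene coloured by role, with a grey box for the quartiles and a line for the median of all protein-coding genes of the class. The medians of the ABC genes were 21 for detected, 6 for partly detected and 11 for never detected genes, against 19, 5 and 4 for all genes.

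For the comparison of PNP with control cells, values are scaled log2 signals: the log2 of the processed signal minus the array's own 75th percentile over non-control spots, so that 0 stands for a spot brighter than 75% of those spots. A difference is PNP minus control on this scale, each gene is represented by its brightest tested probe, and SE is the standard error from the limma fit. Signals of different probes cannot be ranked against each other, so each gene is compared only with itself. In RNA from whole cultures, fewer cells of a kind and less RNA per cell cannot be told apart.

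**Figure D3:**
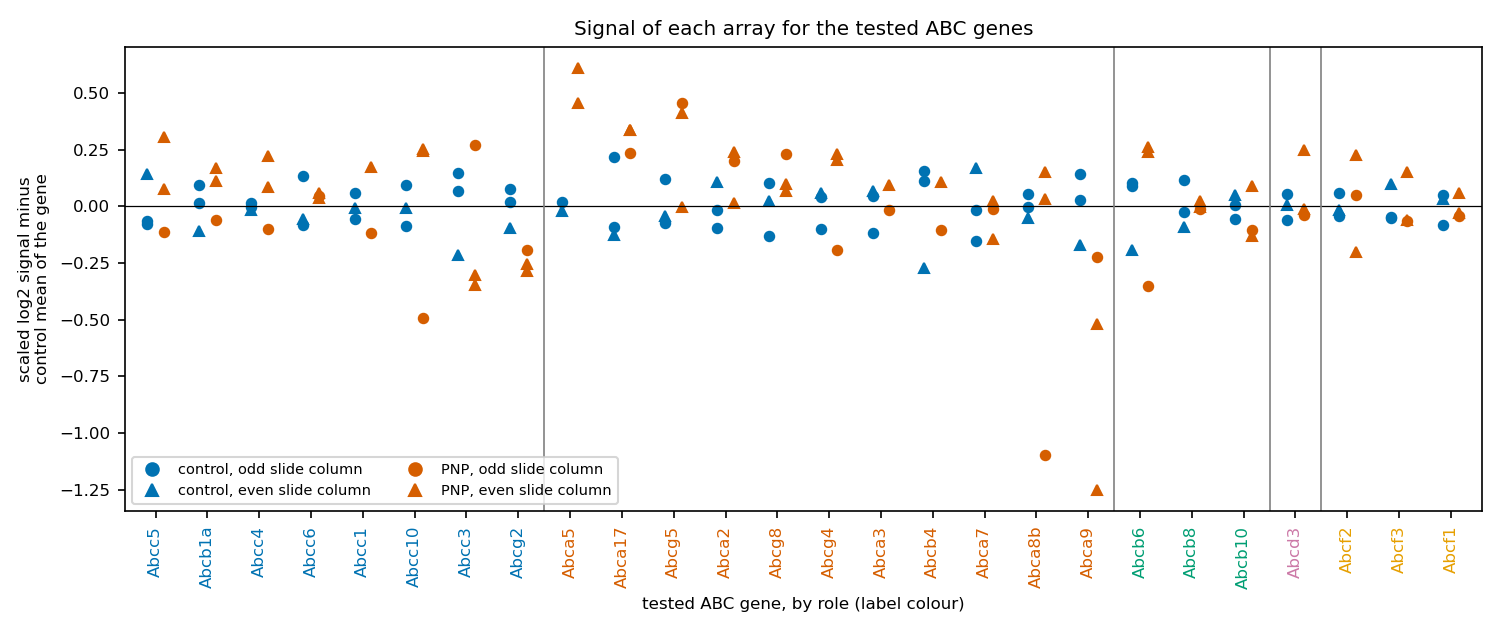
Scaled log2 signal of each array minus the mean of the gene's control arrays, for 26 of the 27 tested ABC genes ordered by role, with controls in blue, PNP in orange, circles for odd and triangles for even slide columns. The PNP values of Abcg2 and Abca9 lay below all control values and those of Abca17 and Abca5 above them, while the 2 groups overlapped for Abcc1 and Abcc4.

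Among the 8 tested efflux genes 0 were called, 6 differences were positive and 2 negative, and their median was 0.04. Abcg2, which exports sulfate conjugates, urate and many drugs, had the smallest unadjusted p of the group. Its scaled log2 signal was 0.68, 0.57 and 0.74 on control arrays 1 to 3 and 0.41, 0.47 and 0.38 on PNP arrays 1 to 3. All 3 PNP values lay below the lowest control value. The difference was -0.25 (SE 0.09, 95% interval -0.46 to -0.031, 0.844-fold), with an adjusted p of 0.740 in limma, so it did not pass the test. It was -0.24 within odd columns of the slide and -0.18 within even columns, where the lack of overlap fixed the sign. With normexp background correction it was -0.12. The unadjusted p of Abcg2 was no longer below 0.05 with normexp or with the slide column, slide row or replicate as a block. The same held without control array 1 or 3, or without PNP array 1 or 3.

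Abcc1, the multidrug resistance protein that exports glutathione conjugates, gave 0.37, 0.42 and 0.49 in control cells and 0.31 and 0.60 on PNP arrays 2 and 3. The spot on PNP array 1 was marked as an outlier and left out, and its value was 0.63. The PNP values lay on both sides of the control range. The difference was 0.03 (SE 0.13, 95% interval -0.27 to 0.32, adjusted p = 0.982 in limma).

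Abcc4, an exporter of cyclic nucleotides, urate and steroid conjugates, had control signals of -2.0, -2.03 and -2.02 and PNP signals of -1.79, -2.12 and -1.93. The control arrays lay close together and inside the range of the PNP arrays. The difference was 0.07 (SE 0.11, 95% interval -0.18 to 0.32), and limma gave an adjusted p of 0.951.

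Abcc3, an exporter of glucuronides and bile salts, had control signals of -1.58, -1.86 and -1.50 and PNP signals of -2.0, -1.38 and -1.95. The 2 groups overlapped, while odd and even slide columns did not. The 3 arrays in odd columns read -1.58, -1.50 and -1.38, and the 3 in even columns read -1.86, -2.0 and -1.95. Whether the slide column played a part in this gene was not tested. The difference was -0.13 (SE 0.18, adjusted p = 0.951 in limma) and 0.026 with the slide column as a block, with 0.16 within odd and -0.11 within even columns.

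The P-glycoprotein genes, which make the same type of broad drug exporter, were each measured by probes of their own. Abcb1a read -2.76, -2.96 and -2.84 in control and -2.74, -2.91 and -2.68 in PNP cells. The ranges overlapped, and the difference was 0.07 (SE 0.11, 95% interval -0.17 to 0.32, adjusted p = 0.951 in limma). Abcb1b had 2 probes, and the dimmer was above background on 0 control arrays and 1 PNP array. The brighter was left out of the test because 2 control spots and 1 PNP spot were marked as outliers. With those spots kept it read -1.54, -2.08 and -1.65 against -1.37, -2.16 and -1.56, and the difference was 0.06 (SE 0.22, 95% interval -0.44 to 0.56, adjusted p = 0.973 in limma over 15046 genes).

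Abcc5, which carries cyclic nucleotides out of cells, had 5 tested probes. The brightest read 0.0025, 0.21 and -0.013 in control and 0.37, -0.048 and 0.14 in PNP cells. Its difference was 0.09 (SE 0.13, adjusted p = 0.951 in limma), and the other probes gave -0.14, 0.32, 0.09 and -0.17. The probes thus disagreed in sign, and the probe at 0.32 (SE 0.13) had an adjusted p of 0.709 over 27222 probes in limma. Abcc6, whose protein is known for its part in pyrophosphate release, differed by 0.05 and Abcc10 by 0.0034, both with overlapping groups. For Abcc10 the PNP arrays read 0.21, -0.53 and 0.21 around control values from -0.13 to 0.05, so 1 PNP array lay far below the others.

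**Figure D4:**
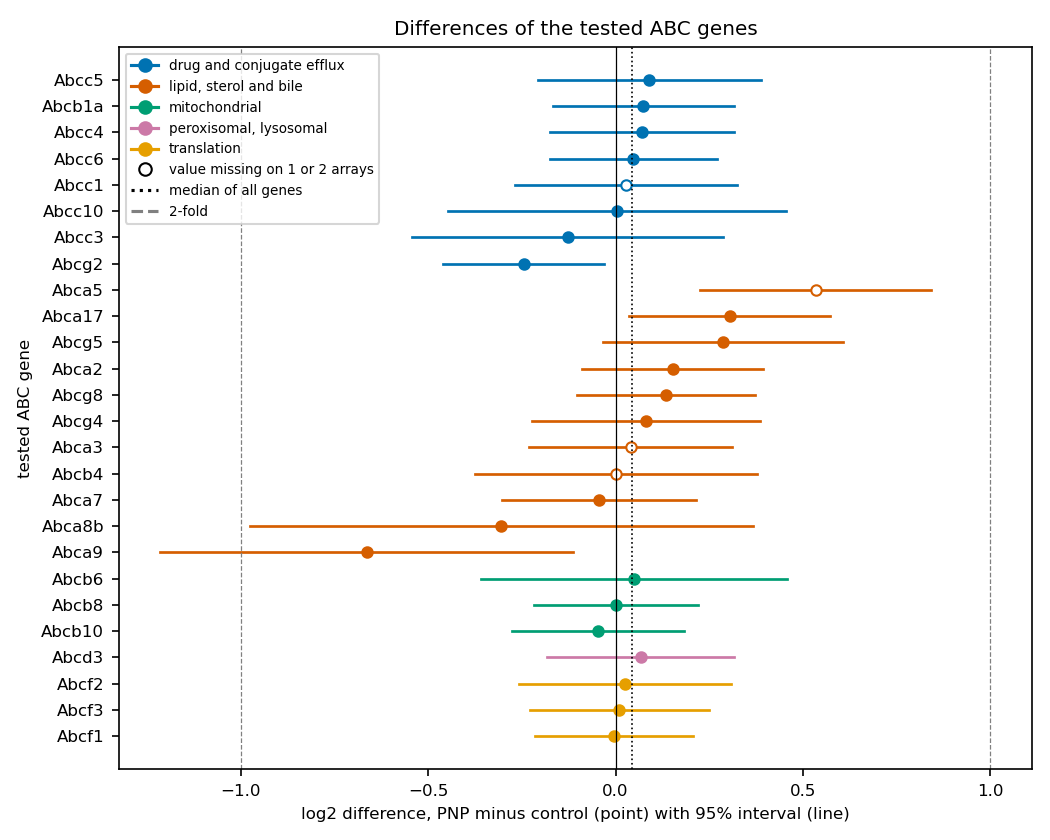
Difference PNP minus control (log2) with its 95% interval from limma for 26 of the 27 tested ABC genes, grouped by role, with open points for genes that lacked a value on 1 or 2 arrays, a dotted line at the median of all genes and dashed lines at a 2-fold change. The points ran from -0.66 for Abca9 to 0.53 for Abca5, 25 of the 26 intervals shown left out a 2-fold change, and no gene passed an adjusted p of 0.05.

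The 11 tested genes of lipid, sterol and bile transport gave 8 positive and 3 negative differences with a median of 0.08, and 0 were called. They held 3 of the 4 ABC genes with an unadjusted p below 0.05, 27.3% of the group against 6.52% of all genes tested. Abca9, a member of the Abca group on chromosome 11, read -1.94, -2.26 and -2.06 in control and -2.60, -2.31 and -3.34 in PNP cells. All PNP values lay below the controls, the nearest by a small margin, and PNP array 3 lay farthest. The difference was -0.66 (SE 0.24, 95% interval -1.21 to -0.11, 0.631-fold), with an adjusted p of 0.740 in limma. Without PNP array 3 it was -0.37, and with normexp background correction -0.43. It was -0.31 within odd columns of the slide and -0.71 within even columns. For Abca9 the unadjusted p was no longer below 0.05 with the slide row as a block, or without control array 1 or 3. Since the groups did not overlap, leaving out an array or splitting by column could not change the sign.

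Abca5, a lysosomal member of the same group, had 4 usable values. It read -3.08 and -3.12 on control arrays 1 and 2 and -2.49 and -2.65 on PNP arrays 1 and 3. The difference was 0.53 (SE 0.13, 95% interval 0.22 to 0.84, 1.45-fold), with an adjusted p of 0.740 in limma. The outlier spots left out read -2.87 on control array 3 and -3.31 on PNP array 2. With them the groups overlapped and the difference was 0.21 (SE 0.20, adjusted p = 0.935 in limma). The value of Abca5 thus turned on 2 spots that the scanner software had marked.

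Abca17, which lies next to Abca3 on chromosome 17, read 1.21, 0.86 and 0.90 in control and 1.33, 1.23 and 1.33 in PNP cells. All PNP values lay above the controls, the closest pair being PNP array 2 and control array 1. The difference was 0.30 (SE 0.12, 95% interval 0.037 to 0.57, 1.23-fold), with an adjusted p of 0.740 in limma. Within odd columns it was 0.17 and within even columns 0.46, where the lack of overlap fixed the sign. With normexp it was 0.21. The unadjusted p of Abca17 was no longer below 0.05 with normexp, with arrays scaled on their median or with the slide row as a block. The same held without control array 2 or 3, or without PNP array 1 or 3. A second Abca17 probe was above background on no array. This was also true of 1 probe each of Abca5, Abcb4, Abcb8, Abcc3, Abcc6 and Abcc10.

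Abca5 and Abca9 belong to a run of 5 neighbouring genes on chromosome 11, Abca8b, Abca8a, Abca9, Abca6 and Abca5, with no other listed protein-coding gene between them. The differences in the run had both signs: -0.30 for Abca8b, -0.66 for Abca9 and 0.53 for Abca5, none of which passed the test. Abca8a was above background on 1 control array and Abca6 on none. Abca8b was a dim probe, with control values of -4.55, -4.65 and -4.60 and PNP values of -4.57, -5.70 and -4.45, so its difference came from 1 array (SE 0.29, adjusted p = 0.942 in limma).

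Abcg5 and Abcg8, whose proteins pair into the sterol exporter of liver and intestine and whose genes are neighbours, differed by 0.29 (SE 0.14, adjusted p = 0.804) and 0.13 (SE 0.10, adjusted p = 0.910) in limma. Abcg5 read -2.89, -3.05 and -3.08 in control and -3.01, -2.55 and -2.60 in PNP cells, and PNP array 1 lay inside the control range. Abca2, a lysosomal lipid transporter of myelin-forming cells, differed by 0.15 and Abcg4, a cholesterol exporter known from the brain, by 0.08. Abca3, the surfactant lipid transporter of the lung, differed by 0.04, Abca7 by -0.04 (0.013 with its other tested probe) and Abcb4, the phosphatidylcholine exporter of bile, by 0.0019. All of these groups overlapped, and Abca3 and Abcb4 each lacked 1 PNP value to an outlier spot. With those spots kept Abca3 differed by -0.02 and Abcb4 by 0.05.

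The 4 mitochondrial genes had a median difference of -0.02, with 2 positive and 2 negative differences and 0 called. Abcb10, a transporter of the inner mitochondrial membrane in heme-making cells, read 0.48, 0.58 and 0.54 in control and 0.41, 0.43 and 0.63 in PNP cells, a difference of -0.05 (SE 0.10, adjusted p = 0.961 in limma). Abcb6, linked to porphyrin transport, read -0.61, -0.91 and -0.63 against -0.45, -1.07 and -0.48, and differed by 0.05 (SE 0.18, adjusted p = 0.976 in limma). Within odd columns that difference was -0.45 and within even columns 0.44. Abcb8 differed by 0.0018, and its brighter probe was not tested because 2 PNP spots were marked as outliers.

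Of the peroxisomal and lysosomal genes Abcd3 alone could be tested. It read 1.85, 1.91 and 1.96 in control and 2.16, 1.87 and 1.90 in PNP cells, a difference of 0.07 (SE 0.11, adjusted p = 0.953 in limma). PNP array 1 lay above the controls and the other PNP arrays inside their range. Abcd4 had its spot marked as an outlier on all 6 arrays. With those spots kept it read 1.14, 1.28 and 1.34 against 1.18, 1.07 and 1.38, a difference of -0.04 (SE 0.11, adjusted p = 0.965 in limma).

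The 3 tested translation genes gave differences from -0.0044 to 0.03, with a median of 0.0093 and 0 called. Abcf1, a factor of translation initiation, read 2.98, 2.96 and 2.84 in control and 2.99, 2.88 and 2.90 in PNP cells, a difference of -0.0044 (SE 0.09, 95% interval -0.22 to 0.21, adjusted p = 0.998 in limma). Its other 3 tested probes gave -0.02, 0.04 and -0.04. Abcf2 read 0.15, 0.08 and 0.05 against 0.32, 0.14 and -0.11 and differed by 0.03 (SE 0.12, adjusted p = 0.983 in limma). Abcf3, whose yeast counterpart works with the Gcn2 stress kinase, read 0.95, 1.1 and 0.95 against 1.15, 0.94 and 0.94 and differed by 0.0093 (SE 0.10, adjusted p = 0.996 in limma). Its other tested probe gave -0.013.

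Abce1, which splits ribosomes after termination so that they can be used again, had 2 PNP spots marked as outliers and was not tested. With them kept it read 2.18, 2.28 and 2.19 in control and 2.20, 2.11 and 2.06 in PNP cells. PNP arrays 2 and 3 lay below all controls and PNP array 1 among them. The difference was -0.10 (SE 0.09, 95% interval -0.31 to 0.12, adjusted p = 0.935 in limma).

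Read over the family, 4 of 27 ABC genes had an unadjusted p below 0.05 (14.8%), namely Abca5, Abca9, Abca17 and Abcg2, against 6.52% of all genes tested. Of these 2 were higher, where 5.02% of all genes were, and 2 were lower, where 1.49% were. The same 4 genes were the ones whose groups did not overlap, 14.8% against 13.4% of all genes. Of these 2 had all PNP values above the controls (9.66% of all genes) and 2 had all below (3.75%). The differences of ABC genes were positive in 19 of 27 (70.4%), against 63% of all genes, and their median was 0.03 against 0.04. That split rested on how arrays were scaled: with the array median in place of the 75th percentile, 10 of 27 ABC differences were positive and the median of all genes was -0.02. Among all genes with an unadjusted p below 0.05, the share that was higher was 77.1%, and 47.4% with that scaling. Counts at an unadjusted p are descriptions, since none passed the adjustment.

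**Figure D5:**
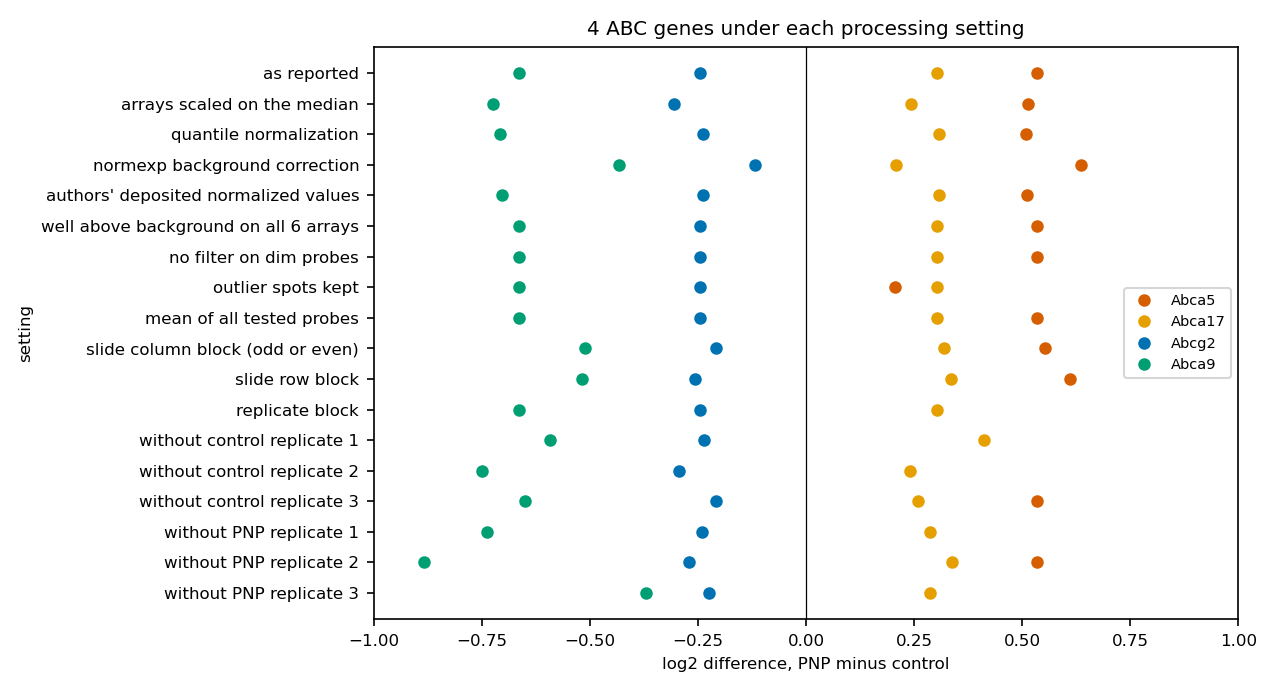
Log2 difference PNP minus control (horizontal axis) of Abca5, Abca9, Abca17 and Abcg2 as reported (top row), under each other way of processing the arrays and with each array left out, one row for each setting. Abca9 and Abcg2 stayed below 0 in every setting and Abca17 and Abca5 above 0 in every setting in which they could be fitted, none at an adjusted p below 0.05. As reported, the PNP values of each gene lay all above or all below its controls. Leaving out an array, or a block for slide column, slide row or replicate, therefore could not change these signs.

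None of the listed genes around the ABC proteins passed the test. Of 31 listed genes that control, partner or supply ABC proteins or belong to the superfamily under other names, 24 could be tested, 0 were called, and 14 differences were positive and 10 negative with a median of 0.01. Nr1h3, a liver X receptor that drives sterol exporters such as Abcg5 and Abcg8, was the 1 gene of these with an unadjusted p below 0.05, at 0.32 (SE 0.10, adjusted p = 0.740 in limma). Among all genes tested 6.52% had an unadjusted p below 0.05. The Nr1h3 probe was dim, with a control mean of -4.18. Nfe2l2, the factor of the antioxidant response that drives Abcc genes, differed by 0.11 (SE 0.21, adjusted p = 0.960 in limma). Nr1i2, the pregnane X receptor, was above background on no array, and Ahr was detected but not testable for outlier spots.

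The 5 testable genes of glutathione supply, which feeds Abcc1 export, had a median difference of -0.0081. Gclc and Gclm, the subunits of the rate-limiting enzyme, differed by -0.02 and -0.0081, and the cystine importer Slc7a11 by -0.28 (SE 0.29, adjusted p = 0.946 in limma). The 4 tested partners of Abce1 and the Abcf proteins had a median of 0.01, and the 4 organelle partners one of -0.03. Tap1, a peptide transporter subunit for antigen display, differed by -0.24 (SE 0.14) and its partner Tap2 by 0.15 (SE 0.21), with adjusted p-values of 0.864 and 0.951 in limma. Kcnj11, the channel pore that pairs with Abcc8, differed by 0.12, although neither sulfonylurea receptor was detected.

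The arrays themselves bear on these values as follows. Spots well above background made up 62.1% ± 0.240 (SD, n = 3) of spots in control and 61.6% ± 1.47 in PNP arrays (exact permutation p = 0.9). Outlier spots made up 7.75% ± 1.27 and 12.3% ± 0.814 (exact permutation p = 0.1, the smallest that 3 against 3 allows, two-sided), so more spots were left out on PNP arrays, among them those of Abcb8 and Abce1. Their part in the differences was not tested beyond the values given with outlier spots kept. The 75th percentile of the processed signal, by which each array was scaled, ran from 5362 to 5798 on control and from 4503 to 5286 on PNP arrays, so every PNP array was dimmer (exact permutation p = 0.1). Its part in the differences was not tested beyond the other scalings. All 6 arrays were on 1 slide, with the 3 control arrays and PNP array 1 in its first row and PNP arrays 2 and 3 in its second row, so a contrast within a row rests on PNP array 1. Within that row PNP minus control was -0.26 for Abcg2, 0.61 for Abca5, -0.52 for Abca9 and 0.34 for Abca17. These genes showed no overlap between the groups as tested, so any contrast within a row or column had to keep its sign. Their signs within rows or columns therefore cannot tell whether slide position played a part. Of the Leydig lineage, Star and Nr5a1 were above background on all 6 arrays, and Cyp17a1, a dim probe, on all control arrays and 2 PNP arrays. Hsd3b1 was above background on 1 control array alone, and Cyp11a1 and the luteinizing hormone receptor Lhcgr on none. Insl3 had no named probe. Markers of other lineages were mixed. Cd68 and Csf1r of macrophages, Sox9 and Wt1 of Sertoli cells, Acta2, Cnn1 and Myh11 of myoid cells and Prm2 and Ddx4 of germ cells were above background on all 6 arrays, and Tnp1 of germ cells on 5. Myh11, Prm2 and Tnp1 were dim probes too, with control means of -5.12, -4.29 and -4.29. Adgre1 and Ptprc of macrophages, Amh and Dhh of Sertoli cells and Cdh5 and Kdr of endothelium were above background on none, and Pecam1 and Dazl on 1 PNP array each. Of the 11 tested markers, Leydig genes included, 0 were called, and Sox9 alone had an unadjusted p below 0.05, at 0.24 (adjusted p = 0.740 in limma). The share of all genes below that unadjusted p was 6.52%.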

How the data were processed

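Total RNA of 6 TM3 samples, 3 control and 3 PNP, was amplified, labelled and hybridised to Agilent arrays with 1 dye, per the labels' protocols. The labels name Cy3 while the deposited files hold red-channel columns, so which dye the values stand for is unsettled. The deposited scanner files give intensity per spot and flags as other values. The software was Feature Extraction 11.5.1.1 per the file headers, and version 10.7 per the submitters' processing notes. The value table that the authors deposited holds log2 values that look quantile normalized (each column's median 8.27). It was used as an alternative, its scale and direction were found by setting it against the scanner values, and no source used here says how it was made.

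The arrays were analysed with limma 3.58.1 in R 4.3.3. Each array's log2 processed signal minus its 75th percentile over non-control spots was the measure. Of 62976 spots 3671 were controls. Spots marked as outliers were left out. A probe was tested if well above background on all 3 arrays of a group with at least 2 values per group. The scanner files carry accessions, which a RefSeq list (GRCm38.p6) named for 33767 of 56605 probes. Of the 80 ABC probes 36 were tested, 21 of the genes had several probes, and a gene took its brightest tested probe. limma's lmFit and eBayes were fitted over 13138 genes with Benjamini-Hochberg adjustment at 0.05, after being tested on simulated data.

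Array values are given for Abcc1, Abcc4, Abcb1a, Abcb1b, Abcg2 and Abce1, for the 3 tested members of smallest unadjusted p in each role group, and for some members with disagreeing probes or a value carried by 1 array. The members, role groups and gene lists were chosen with earlier results of these data known. Single results of some members are not reported here, although the members are counted. The scanner files hold no mean signal, so normexp, with offset 50, used the median signal and median background. The array's design build is mm9 per the file headers, and only the coordinates of the RefSeq promoters are printed. With 3 arrays per group the number of arrays limits precision: the median half-width of the 95% interval was 0.27 log2 units over the 27 genes.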

Additional observations from a re-analysis of the deposited data

How the results depend on the processing

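In 17 alternative settings no ABC gene was called (adjusted p from 0.203 to 1.00 with single arrays left out). Over all genes, 2 of 12926, 6 of 12934 and 5 of 12873 were called without control arrays 1, 2 and 3. Without PNP arrays 1 and 2 the called genes were 23 of 12584 and 1 of 12352, and with the slide column block 1 of 13100. No gene was called in the other settings. The median ABC difference was -0.048 with arrays scaled on the median, 0.106 with the slide row as a block, and -0.013 to 0.091 with each array left out. Same-numbered arrays did not deviate together (correlations -0.312, -0.224 and -0.0259 over 11110 genes), and with the replicate block 0 ABC genes were called and 2 had an unadjusted p below 0.05. That count was 4 as reported, 2 with normexp, 1 with the slide row block, and 1, 2 and 1 without control arrays 1, 2 and 3 and 2, 7 and 2 without PNP arrays 1, 2 and 3. The same count over all genes was 856 of 13138 as reported. It also moved with the setting, from 351 of 12873 without control array 3 to 1671 of 12352 without PNP array 2. Detected ABC genes numbered 30, or 41 with background passed on at least 1 array and 27 with outlier spots left out. Of 246 values of 15 named genes 24 changed sign, all of genes whose reported difference lay between -0.13 and 0.07, and the cause was not tested. With median scaling Abcb6 was -0.011, Abcc1 -0.059, Abcf2 -0.035 and Abcf3 -0.051. With normexp Abcc1 was -0.00011 and Abcf1 0.098. The mean of all tested probes gave -0.0019 for Abcf3. The slide column block gave -0.0035 for Abcb6, 0.026 for Abcc3 and -0.034 for Abcf3, and the slide row block 0.060 for Abcf1. With each array left out, Abcf1 ran from -0.046 to 0.021, Abcf3 from -0.063 to 0.058, Abcb6 from -0.057 to 0.25, Abcc4 from -0.0068 to 0.16, Abcd3 from -0.025 to 0.12 and Abcf2 from -0.076 to 0.14. Abca5 could not be fitted with the replicate block or without some arrays.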
